A study of Rattus norvegicus with 18 samples.

Results

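Carbon tetrachloride (CCl4) given to male rats for 28 days, set against control rats of the same day, is described here from 6 liver arrays, 3 of CCl4 rats and 3 of controls, out of the 18 arrays of the series. These arrays were picked by their titles, but the comparison and the gene lists were chosen with earlier results of these data known. The series holds 6 groups of 3 rats each, namely controls, a DEN group (N-nitrosodiethylamine) and a CCl4 group, at day 28 and again at day 84. All were male F344/NSlc rats that were bought at 5 weeks of age and kept for 1 week on a basal diet before the study. CCl4 was dosed at 100 mg/kg in corn oil, and DEN, used below as the other treated group of day 28, at 4 mg/kg in saline. Both were given daily by gavage in 5 mL/kg.

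The labels disagree about the controls. Their titles call them vehicle rats, whereas the treatment protocol describes untreated rats on the basal diet, so effects of CCl4, of corn oil and of gavage cannot be told apart. Each array held the RNA of 1 rat, and nothing in the labels ties a rat of one group to a rat of another. Total RNA came from liver tissue. The labelled tissue was borne out by its defining genes: albumin (Alb), transthyretin (Ttr), apolipoprotein A1 (Apoa1), Hnf4a and Cps1 were well above background on all 6 arrays.

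CCl4 is turned by cytochrome P450 enzymes, mainly in hepatocytes around the central vein, into a radical that attacks membrane lipids and kills the cell. It does not damage DNA in the way of a genotoxic carcinogen. Surviving hepatocytes divide to replace the loss, macrophages clear the dead cells, and stellate cells, which store vitamin A at rest, turn into myofibroblasts that lay down collagen. The comparison addresses the liver's state after 4 weeks of such injury, as the non-genotoxic arm of a study of genes lowered by hepatocarcinogens.

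Levels are given as log2 units relative to the 75th percentile of each array, and differences as log2 fold changes with ± 1 SE, the standard error of a limma fit with n = 3 rats per group. Values of single arrays are listed in the order of replicates 1, 2 and 3, which carries no meaning. "Rose" and "fell" are used only of genes called by limma at an adjusted p under 0.05 (Benjamini-Hochberg). A gene was tested when a probe was well above background on all 3 CCl4 arrays or all 3 controls, which left 10328 of 15645 named genes. Of these genes, 6427 were called (62.2%), 2784 higher (27.0%) and 3643 lower (35.3%) with CCl4. The 3 CCl4 arrays all lay above the 3 controls in 2758 genes (26.7%) and all below them in 3716 (36.0%). With so many changes, a share of called genes near these percentages says nothing particular about a list.

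The rises were larger than the falls. At least 2-fold changes numbered 1201 higher and 760 lower, at least 8-fold changes 172 higher and 46 lower, and at least 32-fold changes 14 higher and 7 lower. Of the genes tested, 820 were well above background in every CCl4 array but not in every control, against 127 the other way. These flags are set before scaling, and the CCl4 arrays were brighter. They had 51.8 to 55.2% of probes well above background, against 47.2 to 49.8% in controls. The part that brightness had in the 2 counts was not tested.

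The direction of small changes depends on the reference level. The 75th percentile itself was 0.80 log2 units higher over the spike-in probes, which carry RNA added in fixed amounts, on CCl4 arrays than on control arrays. Scaled to the spike-ins, 7856 genes were called higher (76.1%) and 499 lower (4.83%), and the median change of all genes tested moved from −0.07 to 0.73. All 2784 rises were also called higher with spike-in scaling, whereas 499 of the 3643 falls were still called lower and 1462 were called higher. Higher genes made up 43.3% of calls with the 75th percentile, 94.0% with spike-in scaling, 52.3% with quantile normalization and 53.3% with the 75th percentile of probes detected on all arrays. A fall below is therefore relative to the bulk of liver transcripts, and for most lists that mainly fell the count that also fell with spike-in scaling is given. Which scaling is nearer to the RNA content of the liver was not tested.

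The 3 CCl4 rats did not respond equally. Replicate 2 was the most changed rat in 75.1% of the called genes, and replicate 3 the least changed in 58.8%. Among genes that rose, the median difference from the control mean was 0.80 in replicate 1, 1.12 in replicate 2 and 0.69 in replicate 3. Among genes that fell it was −0.50, −0.70 and −0.47. On the first principal component of the 6 arrays, which held 85.1% of the variance, controls scored −51.8 to −49.1 and CCl4 arrays 43.3, 76.1 and 31.8. Replicate 3 sat on another slide than the other 5 arrays. Without replicate 2, 5562 genes were called, and on the shared slide alone 5928.

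**Figure D1:**
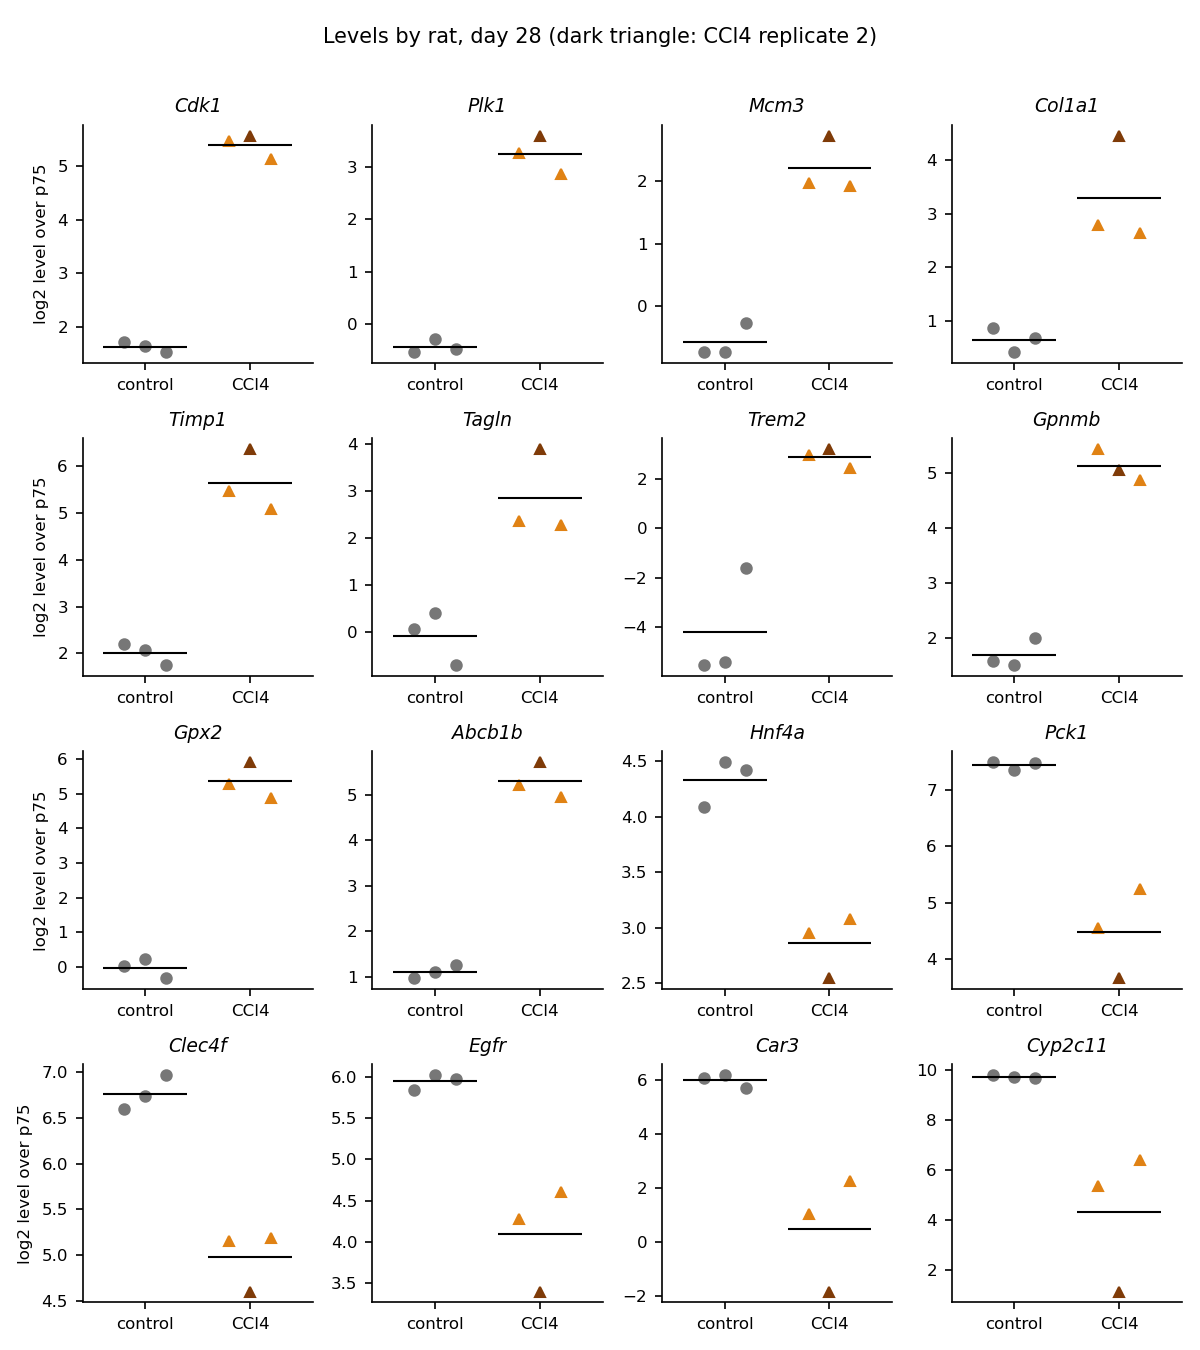
Log2 level of 16 genes (vertical axis, relative to the 75th percentile of each array) in the 3 control rats (grey circles) and the 3 CCl4 rats (orange triangles, replicate 2 filled dark) at day 28, with a bar at each group mean. In every panel the CCl4 arrays lie on one side of the controls, and replicate 2 is the lowest rat for Cyp2c11 at 1.16 against 5.38 and 6.41 for its group.

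Genes of cell division rose together and from low levels. Of the mitosis list (kinases, spindle and kinetochore genes, and genes of anaphase), 30 of 30 tested members rose and 0 fell, with a median of 3.46 beside −0.07 for all genes tested. All 30 also rose without replicate 2 and with spike-in scaling. They were not an even draw of the filter: 5 members were dim on all control arrays, and all 22 members that were well above background on all 6 arrays rose.

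Plk1, the polo-like kinase that drives entry into mitosis, stood at −0.53, −0.27 and −0.47 in the controls and at 3.26, 3.59 and 2.87 with CCl4, a 12.7-fold rise (3.66 ± 0.29, adjusted p = 2.42e-07). Cdc20, which activates the anaphase-promoting complex, stood at 0.37, 0.19 and 0.041 and at 3.76, 3.80 and 3.34 (3.43 ± 0.29, adjusted p = 4.65e-07). Cdk1, the mitotic cyclin-dependent kinase, stood at 1.71, 1.65 and 1.52 and at 5.46, 5.56 and 5.13, a 13.5-fold rise (3.76 ± 0.29, adjusted p = 2.24e-07). In all 3 genes the groups lay more than 2 log2 units apart, and the CCl4 rats differed little from one another. Cenpf, a kinetochore protein, was dim in all controls and at least 11.6-fold higher with CCl4.

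DNA replication genes rose less steeply. Of this list, 29 of 31 tested members rose and 1 fell, with a median of 1.55. Loaders of the replicative helicase rose in 13 of 14 cases (10 with normexp background correction). Of those 14, 6 were dim on all control arrays, and of the 7 well above background on all 6 arrays 6 rose and 1 fell. Polymerases, clamp and ligase genes rose in 11 of 11. Mcm3, a subunit of that helicase, stood at −0.73, −0.73 and −0.26 in the controls and at 1.98, 2.73 and 1.92 with CCl4 (2.79 ± 0.21, adjusted p = 1.60e-07). Rrm2, the regulated subunit of ribonucleotide reductase, which supplies deoxynucleotides, rose 12-fold (3.59 ± 0.29). Pcna, the sliding clamp, rose by 0.97 ± 0.12. The member that fell was Mcm10 (−0.67 ± 0.19, but 0.13 with spike-in scaling).

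Of 28 tested control genes of the cycle, 15 rose and 2 fell. Cyclins rose in 6 of 8 cases, among them Ccna2 of S phase (3.75 ± 0.31), Ccnb1 of mitosis (3.79 ± 0.32) and Ccne1 of the entry into S phase (2.67 ± 0.29). Of the D cyclins Ccnd1 rose (1.36 ± 0.16) and Ccnd2 and Ccnd3 were not called (−0.11 ± 0.19 and 0.043 ± 0.10). The G1 kinases Cdk2, Cdk4 and Cdk6 were not called either, at −0.069 ± 0.13, 0.18 ± 0.11 and 0.29 ± 0.23. Foxm1, a transcription factor of mitotic genes, rose by 2.21 ± 0.15 and E2f1, one of replication genes, by 1.90 ± 0.11. Cdkn1a, which encodes the inhibitor p21, fell by 0.61 ± 0.12 although it lay at 0.19 with spike-in scaling, and its 3 probes disagreed (−0.73 to 0.31).

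The promoters of these genes are shown because the cell division lists rose together and hold some sequence elements at different shares. RefSeq promoter windows on GRCr8, from 250 bases before to 50 after the start, were matched by symbol for 24 of the 30 mitosis genes and 26 of the 31 replication genes. The cell cycle homology region (TTTGAA, either strand) was in 17 of the 24 mitosis promoters (70.8%), in 12.0% of the promoters of all genes tested and in 18.1% of all promoters of the table. The CCAAT box (CCAAT, either strand) was in 19 of the 24 (79.2%), in 57.7% of the replication promoters and in 84.2% of those of the cholesterol genes described below, against 38.6% of genes tested. The E2F site, searched in its common 8-base form on both strands, was in 11 of the 26 replication promoters (42.3%), against 4.05% of genes tested, and in 0 of the 24 mitosis promoters. A match is a run of letters, and binding was not measured. Capitals below mark the homology region and CCAAT boxes in Plk1 (chr1:186147408-186147707, plus strand), Cdc20 (chr5:137255750-137256049, minus strand) and Cks2 (chr17:13727470-13727769, minus strand), and E2F sites and CCAAT boxes in Mcm6 (chr13:42404303-42404602, minus strand) and Mcm3 (chr9:30733697-30733996, minus strand).
Plk1: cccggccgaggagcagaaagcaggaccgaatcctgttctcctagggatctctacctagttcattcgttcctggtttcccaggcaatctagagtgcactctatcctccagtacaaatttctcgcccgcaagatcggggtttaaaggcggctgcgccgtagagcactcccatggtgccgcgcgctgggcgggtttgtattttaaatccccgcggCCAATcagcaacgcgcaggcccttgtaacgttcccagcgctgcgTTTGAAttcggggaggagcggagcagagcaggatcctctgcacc
Cdc20: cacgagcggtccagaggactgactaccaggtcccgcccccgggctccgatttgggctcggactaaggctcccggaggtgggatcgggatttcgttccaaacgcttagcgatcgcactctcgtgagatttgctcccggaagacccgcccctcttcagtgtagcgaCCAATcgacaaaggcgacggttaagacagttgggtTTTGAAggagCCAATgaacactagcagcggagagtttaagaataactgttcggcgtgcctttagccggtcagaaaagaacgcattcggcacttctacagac
Cks2: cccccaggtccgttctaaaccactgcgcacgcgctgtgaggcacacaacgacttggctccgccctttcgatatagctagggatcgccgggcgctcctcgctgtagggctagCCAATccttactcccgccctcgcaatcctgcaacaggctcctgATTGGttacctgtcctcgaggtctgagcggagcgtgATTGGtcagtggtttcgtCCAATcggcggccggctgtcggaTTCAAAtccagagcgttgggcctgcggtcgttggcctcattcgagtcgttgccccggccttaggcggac
Mcm6: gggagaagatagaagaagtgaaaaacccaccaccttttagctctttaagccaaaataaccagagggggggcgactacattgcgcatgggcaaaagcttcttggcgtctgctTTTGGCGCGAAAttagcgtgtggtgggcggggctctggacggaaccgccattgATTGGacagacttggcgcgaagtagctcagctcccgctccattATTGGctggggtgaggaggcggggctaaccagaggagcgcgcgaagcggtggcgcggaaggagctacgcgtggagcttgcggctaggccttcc
Mcm3: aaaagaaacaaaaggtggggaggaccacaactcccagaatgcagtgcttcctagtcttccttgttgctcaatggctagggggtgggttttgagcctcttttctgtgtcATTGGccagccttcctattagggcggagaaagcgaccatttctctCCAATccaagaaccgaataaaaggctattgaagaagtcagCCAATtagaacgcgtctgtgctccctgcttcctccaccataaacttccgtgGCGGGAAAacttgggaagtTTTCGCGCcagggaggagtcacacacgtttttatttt
Counted from the start as position 0, the homology region began at 6 in Plk1, at −51 in Cdc20 and at −19 in Cks2. Cks2, a binding partner of cyclin-dependent kinases, rose by 1.79 ± 0.16 and Mcm6 by 2.43 ± 0.24 (2 of 3 controls well above background). In Mcm6 the capitals that begin at −139 are 2 overlapping E2F sites.

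Scar-forming genes were the next large group. Of collagens and other matrix genes, 22 of 30 tested members rose and 3 fell, with a median of 1.41, and 21 rose without replicate 2. Among the 25 members well above background on all 6 arrays, 18 rose and 3 fell. All 5 fibrillar collagens tested rose. Col1a1, the main collagen of scar, stood at 0.87, 0.42 and 0.68 in the controls and at 2.80, 4.45 and 2.65 with CCl4, a 6.26-fold rise (2.65 ± 0.36, adjusted p = 2.96e-05). Replicate 2 was the highest of the CCl4 rats, and all 3 lay above every control. Col3a1 rose by 1.83 ± 0.24 and Col4a1, of basement membrane, by 1.88 ± 0.22 (its 4 probes gave 0.11 to 2.01). Loxl1, which cross-links elastin and collagen, rose 8.61-fold (3.11 ± 0.39), and Plod2, which hydroxylates collagen for cross-linking, 13.4-fold (3.75 ± 0.47, 1 of 3 controls well above background). Fibronectin (Fn1), which hepatocytes also secrete, fell by 0.83 ± 0.11 (−0.026 with spike-in scaling).

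Genes that protect or remodel matrix rose beside it. Of proteases and their inhibitors, 15 of 23 tested members rose and 1 fell. Among the 18 members well above background on all 6 arrays, 10 rose and 1 fell. Timp1, the inhibitor of metalloproteinases that preserves scar, stood at 2.19, 2.08 and 1.74 in the controls and at 5.47, 6.37 and 5.08 with CCl4, a 12.5-fold rise (3.64 ± 0.25, adjusted p = 9.85e-08). Mmp2, a gelatinase of stellate cells, rose by 1.87 ± 0.29 and Mmp7 by 2.80 ± 0.26 (1 of 3 controls well above background), while Mmp14 was not called (0.12 ± 0.10). Plasminogen (Plg), made by hepatocytes, was the member that fell (−1.45 ± 0.18).

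Markers of stellate cells and myofibroblasts rose in 13 of 18 tested cases and fell in 1, with a median of 1.51. Among the 16 well above background on all 6 arrays, 12 rose and 1 fell. The mean level of the whole list was −0.27 to 0.31 in the controls and 1.09 to 2.23 with CCl4. In bulk tissue, more cells of a type and more RNA per cell cannot be told apart. Tagln, a contractile protein of myofibroblasts, stood at 0.061, 0.40 and −0.72 and at 2.35, 3.89 and 2.27 (2.93 ± 0.42, adjusted p = 4.24e-05). Acta2, smooth muscle actin, rose by 1.82 ± 0.50, Des, desmin, by 1.88 ± 0.35 and Vim, vimentin, by 1.80 ± 0.24. Among genes of resting stellate cells, Reln rose (0.99 ± 0.23), Lrat, which stores vitamin A, was not called (0.66 ± 0.29) and Ecm1 fell (−0.89 ± 0.20, but −0.085 with spike-in scaling). Pdgfrb, the receptor that drives their growth, was not called (0.48 ± 0.23).

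Of signals that act on these cells, 11 of 29 tested members were higher and 9 lower, beside 27.0% and 35.3% of all genes tested. With spike-in scaling 22 were called higher and 2 lower, so the balance of directions depends on the scaling. The ligands Tgfb1 (0.90 ± 0.12) and Tgfb3 (1.28 ± 0.23) rose, as did Ltbp2 (2.93 ± 0.32), whose family holds latent TGF-beta in matrix, and Pdgfa (1.14 ± 0.16). Ccn2, a common TGF-beta target, was not called (0.16 ± 0.36). Of the 10 receptors tested, 2 rose and 5 fell, 1 of them with spike-in scaling. Egfr, the receptor for epidermal growth factor, stood at 5.84, 6.02 and 5.97 in the controls and at 4.28, 3.40 and 4.60 with CCl4 (−1.85 ± 0.25, adjusted p = 2.23e-05). Met, the receptor for hepatocyte growth factor, fell by 0.88 ± 0.14 and Inhba, the activin subunit that curbs hepatocyte growth, fell by 1.78 ± 0.36.

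**Figure D2:**
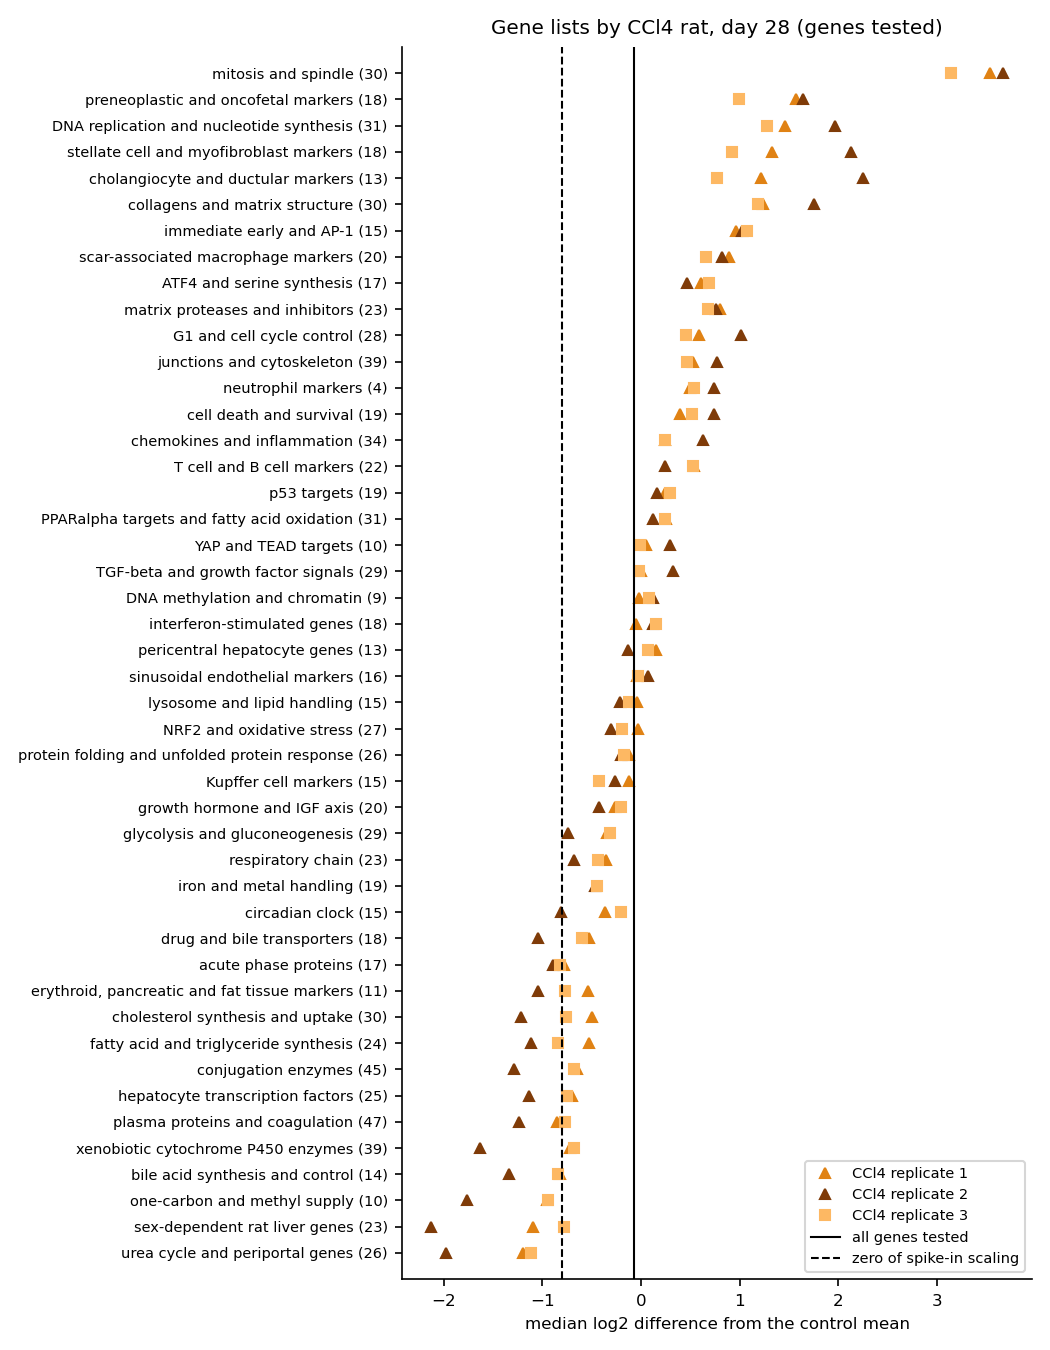
Median log2 difference from the control mean over the tested members of each gene list (horizontal axis) in CCl4 replicates 1 (orange triangles), 2 (dark triangles) and 3 (light squares), with the median of all genes tested as a solid line and the level that spike-in scaling takes as zero as a dashed line at −0.80. Mitosis genes lie furthest to the right in all 3 rats, at 3.54, 3.67 and 3.14, and urea cycle and amino acid genes lie at −1.19, −1.98 and −1.12.

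Markers of the lipid-laden macrophages that gather at scar rose in 12 of 20 tested cases and fell in 2. Of the 14 that were well above background on all 6 arrays, 7 rose and 2 fell. For the whole list the mean level was 1.06 to 1.56 in the controls and 2.87 to 3.11 with CCl4. Within the list, genes of lipid handling and phagocytosis rose in 10 of 12 cases, and genes of recruited monocytes in 2 of 8. Trem2, a lipid receptor of these cells, stood at −5.55, −5.40 and −1.60 in the controls, of which 1 was well above background, and at 2.97, 3.21 and 2.44 with CCl4 (7.06 ± 0.78, adjusted p = 4.83e-06). Gpnmb, a glycoprotein of phagocytes, stood at 1.59, 1.51 and 2.00 and at 5.43, 5.05 and 4.87 (3.42 ± 0.17, adjusted p = 7.26e-09). Mmp12, the macrophage elastase, was dim in all controls and at least 64.2-fold higher. Spp1, osteopontin, which bile duct cells also make, stood at −3.63, −3.41 and −3.13 and at 2.29, 2.32 and 1.52 (5.43 ± 0.45, adjusted p = 4.16e-07, 1 of 3 controls well above background). The members that fell were Apoe (−0.92 ± 0.11), which hepatocytes also make, and Lyz2 (−0.80 ± 0.16, but 0.006 with spike-in scaling, and −0.80 to 0.36 over its 2 probes).

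The AP-1 site, searched in a loose form that takes any middle base (TGANTCA, either strand), was in 6 of the 14 promoters matched to this list (42.9%). Among genes tested the share was 5.09%. Matches were not counted by their middle base. The promoters of the 2 members with the largest differences, both of which hold this loose form, are shown with the match in capitals: Mmp12 (chr8:12866402-12866701, plus strand) and Trem2 (chr9:20151730-20152029, minus strand).
Mmp12: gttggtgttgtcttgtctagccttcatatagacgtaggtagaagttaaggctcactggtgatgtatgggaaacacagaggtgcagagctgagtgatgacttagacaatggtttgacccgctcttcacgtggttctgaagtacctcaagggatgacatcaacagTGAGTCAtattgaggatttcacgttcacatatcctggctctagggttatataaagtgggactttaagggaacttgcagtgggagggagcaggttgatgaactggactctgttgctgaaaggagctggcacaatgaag
Trem2: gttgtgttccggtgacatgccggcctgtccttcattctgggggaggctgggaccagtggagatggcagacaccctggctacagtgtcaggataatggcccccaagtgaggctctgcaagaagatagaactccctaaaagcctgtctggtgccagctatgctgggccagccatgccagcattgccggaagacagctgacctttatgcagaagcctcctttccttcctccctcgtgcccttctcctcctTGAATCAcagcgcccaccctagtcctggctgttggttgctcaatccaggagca
The match began at −87 in Mmp12, where it reads TGAGTCA, and at −3 in Trem2, where it reads TGAATCA. Subunits of the AP-1 dimer are given further on.

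Of the markers of resident Kupffer cells, 2 of 15 tested members rose and 6 fell, while 35.3% of all genes tested fell. With spike-in scaling 8 were called higher and 3 lower. The list had a mean level of 2.95 to 3.23 in the controls and 2.46 to 2.75 with CCl4. Clec4f, a lectin that defines Kupffer cells in rodents, stood at 6.59, 6.74 and 6.97 and at 5.15, 4.60 and 5.19 (−1.78 ± 0.32, adjusted p = 2.69e-04), below every control in all 3 rats. Vsig4, a complement receptor, fell by 1.69 ± 0.34 and Cd5l fell by 1.52 ± 0.29. Marco, a scavenger receptor, fell by 1.49 ± 0.55, a call that was lost without control 2, control 3 or CCl4 replicate 2. C1qa, C1qb and C1qc, which resident and recruited macrophages share, were not called (−0.24 ± 0.14, 0.0048 ± 0.15 and −0.034 ± 0.14).

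Chemokines and other inflammatory genes rose in 15 of 34 tested cases and fell in 8. With normexp background correction 11 rose and 10 fell, and without CCl4 replicate 2 12 rose and 8 fell. Ccl2, which draws monocytes, stood at −4.45, −3.95 and −2.02 and at −0.30, 0.77 and −0.39 (3.50 ± 0.55, adjusted p = 8.55e-05, 1 of 3 controls well above background). Cxcl10 (1.98 ± 0.37), Cxcl16 (1.91 ± 0.23), the TWEAK receptor Tnfrsf12a (1.92 ± 0.28) and Cd44 (2.30 ± 0.36) also rose. Il6r, the receptor through which interleukin 6 drives the acute phase, fell by 2.61 ± 0.28 and Cxcl12 fell by 1.50 ± 0.26. Il1b, a product of activated macrophages, was not called (−0.069 ± 0.18).

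Relative to the bulk of liver transcripts, lymphocyte genes split between T cell and cytotoxic genes. Of T and NK cell markers, 8 of 15 tested rose and 3 fell. With spike-in scaling 11 of them were called higher and 1 lower, so the falling side of the split depends on the scaling. With normexp background correction 7 rose and 4 fell. The T cell receptor chains Cd3d (1.63 ± 0.18) and Cd3g (1.51 ± 0.17) and the coreceptor Cd8b (3.11 ± 0.18, 1 of 3 controls well above background) rose, while Gzma (−2.26 ± 0.19), Gzmb (−1.42 ± 0.29) and Prf1 (−0.93 ± 0.18), the proteins of cytotoxic granules, fell. Of B cell and antigen presentation genes 1 of 7 rose. Of neutrophil genes, 6 of the 10 on the array did not pass the filter, and of the 4 tested 2 rose and 0 fell. Among the 2 well above background on all 6 arrays, 0 rose. The risers were Camp (1.15 ± 0.33, not called with normexp background correction) and Lcn2, which other cells also make, and S100a8 and S100a9 were not called (0.032 ± 0.32 and −0.14 ± 0.34). Endothelial markers had a mean level of 0.15 to 0.38 in the controls and 0.17 to 0.39 with CCl4. The hemoglobin genes Hba-a1 (−1.49 ± 0.23) and Hbb (−1.45 ± 0.22) fell. The part that a changed share of blood or immune cells had in these values was not tested.

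Genes of bile duct cells and of altered hepatocytes rose. Cholangiocyte and ductular markers rose in 10 of 13 tested cases (7 without replicate 2, 5 with normexp background correction), and 4 of them were dim in all controls. Among the 8 well above background on all 6 arrays, 5 rose and 0 fell. Cldn7, a tight junction protein, rose by 1.43 ± 0.32, Prom1 by 1.62 ± 0.45 and Sctr, the secretin receptor, was at least 3.19-fold higher, but the biliary keratins Krt19 and Krt7 were not called (0.66 ± 0.42 and 0.68 ± 0.48). Markers of preneoplastic foci and of fetal liver rose in 12 of 18 cases and fell in 0. Gpx2, a glutathione peroxidase that is scarce in normal liver, stood at 0.032, 0.24 and −0.34 and at 5.28, 5.91 and 4.89, a 41.8-fold rise (5.38 ± 0.31, adjusted p = 2.57e-08). Gstp1, the placental glutathione transferase used to stain rat foci, stood at 4.34, 4.27 and 3.85 and at 5.79, 5.95 and 5.96, a 3.36-fold rise (1.75 ± 0.11, adjusted p = 3.17e-08). Afp, alpha-fetoprotein, was not called (0.0073 ± 0.14).

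The cytoskeleton shifted with these groups. Of keratins, tubulins, annexins and S100 proteins, 23 of 26 tested members rose and 0 fell. Lgals1, galectin 1, rose 11.3-fold (3.50 ± 0.35), S100a11 by 3.42 ± 0.31, Anxa2 by 3.17 ± 0.27, Stmn1, which destabilises microtubules, by 3.14 ± 0.17 and the hepatocyte keratin Krt8 by 1.73 ± 0.23. Tubulins are close paralogs, and a probe for one may also bind another. Of junction genes 2 of 13 rose and 3 fell, among them Gjb1, the main gap junction protein of hepatocytes, which fell by 1.26 ± 0.19, and Cldn3, which fell by 1.19 ± 0.15. Of glycolytic enzymes, 7 of 15 isozymes of growing tissue rose and 3 fell, with Pkm at 1.79 ± 0.22, Hk1 at 1.12 ± 0.20 and Pfkp at 1.25 ± 0.23, while 13 of 14 liver isozymes fell (9 with spike-in scaling).

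The genes that make up the hepatocyte's own programme fell on a broad front. Of urea cycle and amino acid breakdown genes, 26 of 26 tested members fell, with a median of −1.40, and 15 also fell with spike-in scaling. Otc (−1.84 ± 0.18) and Ass1 (−1.84 ± 0.21), enzymes of the urea cycle of periportal hepatocytes, fell. Prodh, which degrades proline, stood at 7.57, 7.25 and 7.43 in the controls and at 5.33, 3.71 and 5.35 with CCl4, a fall of 6.15-fold (−2.62 ± 0.34, adjusted p = 1.92e-05). Cdo1, which degrades cysteine, and Oat, an ornithine aminotransferase listed with the pericentral genes, also fell (−2.32 ± 0.38 and −3.37 ± 0.36).

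Sugar metabolism of the liver fell alike. Pck1, the first committed enzyme of gluconeogenesis, stood at 7.50, 7.36 and 7.48 and at 4.55, 3.66 and 5.25, a fall of 7.77-fold (−2.96 ± 0.44, adjusted p = 6.31e-05). All 3 CCl4 rats lay below every control, and replicate 2 was the lowest. Ppp1r3c, which targets a phosphatase to glycogen, was among the 12 largest falls of all (−4.38 ± 0.34). Pklr (−2.16 ± 0.27), the glucose-releasing G6pc1 (−2.02 ± 0.50) and the fructose kinase Khk (−1.37 ± 0.14) fell too.

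Plasma proteins fell in 46 of 47 tested cases, with a median of −0.95. The falls were small: 13 of the 47 were also lower with spike-in scaling, 3 were higher, and the median was then −0.15. Alb stood at 10.32, 10.30 and 10.25 and at 9.38, 8.92 and 9.33 (−1.08 ± 0.12, adjusted p = 6.86e-06). C6 of complement (−1.87 ± 0.22), F12 of coagulation (−1.74 ± 0.19) and Apoa4 of lipoproteins (−1.89 ± 0.09) fell most in their roles. Of acute phase proteins, 2 of 17 rose and 12 fell, 3 of them with spike-in scaling. Lbp, which binds bacterial lipopolysaccharide, rose by 1.85 ± 0.19 and Lcn2 was at least 10.5-fold higher, while C-reactive protein (Crp) fell by 1.20 ± 0.31.

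Transcription factors that hold this programme in place fell in 18 of 25 tested cases and rose in 2, and 7 fell with spike-in scaling too. Hnf4a, the central regulator of hepatocyte identity, stood at 4.08, 4.49 and 4.42 and at 2.96, 2.54 and 3.08, a fall of 2.77-fold (−1.47 ± 0.13, adjusted p = 7.90e-07), with no overlap between the groups. Cebpa fell by 1.29 ± 0.16 and Cebpb fell by 1.67 ± 0.20. All 10 nuclear receptors tested fell (3 with spike-in scaling), among them Ahr, which senses aromatic compounds (−1.92 ± 0.17), Nr3c1, the glucocorticoid receptor (−1.46 ± 0.15), and the xenobiotic sensors Nr1i2 (−1.14 ± 0.14) and Nr1i3 (−1.04 ± 0.19). Nr0b2, the repressor of bile acid synthesis, stood at 8.52, 8.06 and 8.16 and at 5.42, 4.90 and 6.18 (−2.74 ± 0.41, adjusted p = 6.26e-05). Esr1, the estrogen receptor, was dim on all CCl4 arrays and at least 2.48-fold lower. Foxa1 and Foxa3 were not called (−0.52 ± 0.29 and 0.17 ± 0.18).

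Growth hormone drives a sex-specific set of rat liver genes and the output of insulin-like growth factor. Its receptor Ghr stood at 5.28, 5.23 and 5.40 and at 3.88, 3.08 and 4.00 (−1.65 ± 0.24, adjusted p = 4.25e-05), Igf1 fell by 1.74 ± 0.20 and Igfals fell by 1.57 ± 0.27, while Igfbp2 rose by 2.88 ± 0.34. Male-predominant genes fell in 10 of 13 cases and female-predominant genes in 6 of 10 (5 and 3 with spike-in scaling), so falls were not limited to the male set. Cyp2c11, the main male P450, stood at 9.78, 9.70 and 9.67 in the controls and at 5.38, 1.16 and 6.41 with CCl4 (−5.40 ± 0.92, adjusted p = 1.66e-04). All 3 CCl4 rats were low, but replicate 2 was more than 4 log2 units below the others. Mup4, a major urinary protein, stood at 8.15, 8.41 and 7.75 and at 1.24, −4.52 and 3.41 (−8.06 ± 1.31, adjusted p = 1.20e-04, 2 of 3 CCl4 arrays well above background), and Car3, a carbonic anhydrase of male liver, at 6.08, 6.19 and 5.73 and at 1.03, −1.85 and 2.26 (−5.52 ± 0.74, adjusted p = 2.39e-05). The female form Cyp2c12 rose by 2.79 ± 0.16, and Sult2a1, a female-predominant sulfotransferase, fell by 2.89 ± 0.64. Cyp2c, Mup and Sult2a genes have near-identical copies, and values of single members are uncertain where a probe binds more than 1 of them.

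Enzymes that dispose of foreign compounds fell for the most part. Of P450 enzymes and other oxidases, 28 of 39 tested members fell and 5 rose, with 14 falls under spike-in scaling. Cyp1a2 fell by 1.49 ± 0.36 and Cyp3a9 fell by 3.97 ± 0.88, while Cyp2e1, the form that activates CCl4, was not called (−0.28 ± 0.23). Aox3, an aldehyde oxidase, stood at 2.37, 2.36 and 2.35 in the controls and at −5.68, −6.40 and −2.39 with CCl4 (−7.19 ± 0.81, adjusted p = 5.59e-06), where 1 of 3 arrays was well above background. Cyp2c24 went the other way, from −3.13, −3.68 and −4.32 (1 of 3 controls well above background) to 3.37, 3.62 and 3.07 (7.06 ± 0.26, adjusted p = 1.38e-09).

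Of conjugating enzymes, 33 of 45 fell and 4 rose, with 14 falls under spike-in scaling. Inmt, an indolethylamine methyltransferase, stood at 5.14, 4.93 and 4.67 and at −3.70, −5.97 and −1.75 (−8.72 ± 0.82, adjusted p = 1.22e-06, 1 of 3 CCl4 arrays well above background). Gnmt, the main consumer of S-adenosylmethionine in liver, fell by 2.83 ± 0.31, and so did Mat1a (−1.34 ± 0.20) and Ahcy (−1.44 ± 0.17) of the same methyl cycle, where 8 of 10 tested members fell (5 with spike-in scaling) and 0 rose. Gstm3 rose by 3.14 ± 0.24, in a family whose members share sequence. Genes of the NRF2 response and radical defence moved apart, with 6 of 27 higher and 11 lower (19 and 2 with spike-in scaling): Nqo1 (1.26 ± 0.24), Srxn1 (1.51 ± 0.22) and Osgin1 (2.40 ± 0.41) rose, Gclc, Txnrd1 and Hmox1 were not called (−0.11 ± 0.16, −0.32 ± 0.17 and 0.36 ± 0.15), and the peroxide-splitting enzyme Gpx1 (−1.23 ± 0.13) fell.

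All 8 tested uptake carriers of the sinusoidal membrane fell (2 with spike-in scaling), with Slc10a1, which takes up bile acids, at −1.52 ± 0.31 and Slco1b2 at −1.22 ± 0.29. Of exporters, 5 of 10 rose and 3 fell. Abcb1b, a P-glycoprotein that exports drugs, stood at 0.97, 1.12 and 1.26 and at 5.21, 5.71 and 4.94, a 18.1-fold rise (4.17 ± 0.18, adjusted p = 2.90e-09). Abcc3, which moves conjugates back to blood, rose by 2.73 ± 0.24, whereas the canalicular exporter Abcc2 fell by 1.71 ± 0.20. Bile acid synthesis and its sensors fell in 12 of 14 cases (4 with spike-in scaling), with Slc27a5 at −1.83 ± 0.26, and Cyp7b1 of the alternative pathway rose by 1.24 ± 0.25.

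Genes of the pericentral zone, where CCl4 is activated, did not move as one: 5 of 13 rose and 4 fell. Glul, glutamine synthetase of the innermost hepatocytes, was not called (−0.20 ± 0.18). The WNT targets Axin2 (1.19 ± 0.27), Nkd1 (1.65 ± 0.22) and Sp5 (1.29 ± 0.38, 2 of 3 controls well above background) rose.

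Genes of lipid synthesis mostly fell. Of cholesterol genes, 24 of 30 tested members fell and 1 rose, although 4 fell and 7 were higher with spike-in scaling. Insig1, a sterol-sensing brake on this pathway, stood at 8.49, 7.83 and 8.61 and at 5.86, 5.02 and 6.04 (−2.67 ± 0.30, adjusted p = 5.56e-06). Tm7sf2, a sterol reductase, fell by 2.82 ± 0.32 and Ebp fell by 1.32 ± 0.19. Of fatty acid and triglyceride genes, 14 of 24 fell (9 with spike-in scaling) and 4 rose. Fasn, fatty acid synthase, stood at 6.94, 6.25 and 6.70 and at 4.52, 3.22 and 4.10 (−2.68 ± 0.41, adjusted p = 7.26e-05), Scd fell by 2.63 ± 0.32 and Lpin1, which makes diacylglycerol, fell by 3.30 ± 0.37.

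Of PPARalpha targets and oxidation genes, 11 of 31 rose and 9 fell, beside 27.0% and 35.3% of all genes tested. With spike-in scaling 24 were called higher and 1 lower, so no direction is given for the list. Acot1, a cytosolic thioesterase of acyl-CoA, was the largest rise of all genes tested: it was dim in all controls, stood at 4.36, 6.40 and 4.38 with CCl4 and was at least 399.8-fold higher. Acsm5, a medium-chain acyl-CoA synthetase, stood at −0.14, 0.0062 and −0.97 and at 5.35, 5.33 and 5.43 (5.74 ± 0.27, adjusted p = 4.56e-09). Vnn1 rose by 3.20 ± 0.30, Cd36, which takes up fatty acids, by 2.29 ± 0.32 and Cyp4a1 by 1.46 ± 0.15, whereas Cpt1a and Ehhadh, classic targets, were not called (0.23 ± 0.16 and 0.24 ± 0.14), and Ppara itself fell (−0.86 ± 0.17, −0.056 with spike-in scaling). Subunits of the respiratory chain fell in 19 of 23 cases by small amounts, but 0 fell and 15 were called higher with spike-in scaling. Cox6a2, the heart and muscle form of a cytochrome oxidase subunit, was the only one of them that rose (5.78 ± 0.27), and its 3 probes gave 2.99 to 5.78.

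Stress genes were called in both directions. Of immediate early and AP-1 genes, 10 of 15 rose and 1 fell. Atf3, an early stress factor, stood at −2.34, −1.97 and −2.33 and at 2.25, 2.26 and 2.31, a 22.4-fold rise (4.49 ± 0.31, adjusted p = 8.51e-08). Jun (1.77 ± 0.29) and Junb (1.44 ± 0.26) rose, Fosl2 and Jund were not called (−0.34 ± 0.31 and 0.19 ± 0.11), and Dusp1, a phosphatase that ends such signals, fell (−1.99 ± 0.47). Phgdh, which starts serine synthesis, stood at −0.60, 0.094 and −0.36 and at 4.67, 5.29 and 4.33, a 33.1-fold rise (5.05 ± 0.25, adjusted p = 5.31e-09). Of the list of ATF4 targets and serine synthesis, 9 of 17 rose and 6 fell. Others that rose were Mthfd2 (2.36 ± 0.25), Asns (1.74 ± 0.15) and Psat1 (1.44 ± 0.24), while Sesn2 fell (−2.08 ± 0.12). Chaperones of the endoplasmic reticulum rose in 1 of 16 cases and fell in 5 (1 with spike-in scaling), with Hspa5 at −0.31 ± 0.08 (0.50 with spike-in scaling), and of cytosolic chaperones Hspb1 rose 7.68-fold (2.94 ± 0.24).

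Targets of p53, the factor that answers DNA damage, rose in 9 of 19 cases and fell in 5, with a median of 0.23. With spike-in scaling 14 were called higher and 1 lower, so the falls depend on the scaling. Fas, a death receptor, rose by 2.21 ± 0.18, Gadd45a by 1.75 ± 0.23 and Ccng1 by 0.91 ± 0.11, while Xpc (−0.99 ± 0.091) and Tp53inp1 (−1.07 ± 0.15) fell. Of death and survival genes, 11 of 19 rose and 3 fell, with Bcl2a1, a survival factor of leukocytes, at 2.14 ± 0.30 (2 of 3 controls well above background) and Ripk3, a kinase of necroptosis, at 1.15 ± 0.20. Of writers and readers of DNA methylation and related chromatin genes, 3 of 9 tested rose and 2 fell. With spike-in scaling 8 were called higher and 0 lower, and with normexp background correction 1 rose and 1 fell. Ezh2 (1.35 ± 0.35, 1 of 3 controls well above background) and Dnmt3a (0.66 ± 0.16) were among those that rose. Dnmt1, the maintenance methyltransferase, was not called (0.37 ± 0.19). Of interferon-stimulated genes, 5 of 18 were higher and 5 lower, beside 27.0% and 35.3% of all genes tested. With spike-in scaling 15 were called higher and 0 lower, so no direction is given for them. Isg15, a ubiquitin-like protein of that response, rose by 1.55 ± 0.22.

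The largest single changes fell into the same groups or stood outside them. The 12 largest rises measured on both sides included Fabp4, a fatty acid carrier of fat cells and macrophages (4.76 ± 0.31), Pla2g7, a lipoprotein-bound phospholipase of macrophages (4.73 ± 0.29), and Nol3, an inhibitor of apoptosis (4.30 ± 0.37). Genes dim in all controls with the largest bounds after Acot1 and Mmp12 were Sdcbp2 (at least 36.3-fold higher), Adgrg2 (at least 27-fold) and Rgs4 (at least 20.6-fold). Each bound is that of the brightest kept probe only. The 2 kept probes gave log2 fold changes of 2.64 and 6.42 for Sdcbp2, 4.15 and 5.56 for Adgrg2, and 1.74 and 4.95 for Rgs4. The largest fall was that of Stac3, best known from muscle, which stood at 7.41, 7.16 and 6.84 and at −1.25, −4.14 and 0.13 (−8.89 ± 0.77, adjusted p = 6.30e-07, 2 of 3 CCl4 arrays well above background). Ltc4s, leukotriene C4 synthase, stood at 1.36, 2.75 and 3.16 and at −3.90, −4.07 and −3.47 (−6.24 ± 0.39, adjusted p = 3.96e-08, 1 of 3 CCl4 arrays well above background). Zfp354a, a zinc finger protein, fell by 4.72 ± 0.50, Sez6 fell by 4.38 ± 0.44 and Nox4, an oxidase, fell by 4.33 ± 0.60 (1 of 3 CCl4 arrays well above background). Slc4a8 was dim on all CCl4 arrays and at least 11.6-fold lower.

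**Figure D3:**
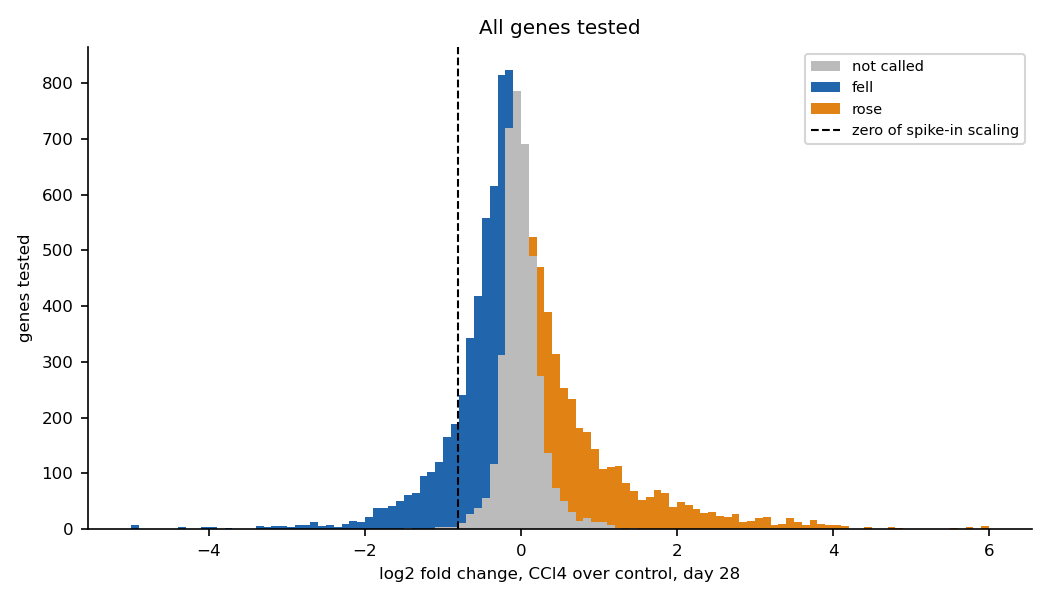
Number of genes tested (vertical axis) by log2 fold change of CCl4 against control at day 28 (horizontal axis, cut at −5 and 6 for display), with called rises in orange, called falls in blue and genes not called in grey. A dashed line marks −0.80, the level that spike-in scaling takes as zero: the bulk of the 3643 falls lies between it and 0.

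Set against the DEN rats of the same day, 4898 genes differed (47.4%), 2208 higher (21.4%) and 2690 lower (26.0%) with CCl4. Scaled to the spike-ins, 4322 genes were called higher and 619 lower. Genes given here as lower than with DEN are therefore lower relative to the bulk of liver transcripts. CCl4 was given in corn oil and DEN in saline, so compound and vehicle cannot be told apart in this contrast. The controls enter this contrast through the filter, the probe choice and the shared spread, and a fit of the CCl4 and DEN arrays alone called 3596. Of cell division genes, 28 of 31 replication genes and 30 of 30 mitosis genes were higher than with DEN, with Cdk1 at 2.88 ± 0.29 (adjusted p = 6.21e-06). Collagens and matrix genes were higher in 20 of 30 cases and lower in 2, with Col1a1 at 2.18 ± 0.36 (adjusted p = 2.96e-04), and Timp1 differed by 2.56 ± 0.25 (adjusted p = 5.63e-06). Markers of scar-associated macrophages were higher in 10 of 20 cases and lower in 5, with Trem2 at 6.37 ± 0.78 (adjusted p = 2.81e-05, 1 of 3 DEN arrays well above background). Kupffer cell markers were higher in 1 of 15 cases and lower in 11. Among genes well above background on at least 1 array of each group, the widest differences were those of Cox6a2 (6.65 ± 0.27) on the higher side, and of Stac3 (−6.98 ± 0.77), Aox3 (−6.03 ± 0.81) and Mup4 (−5.64 ± 1.31) on the lower. Acot1 and Sdcbp2 were dim on all DEN arrays, so no size is given for them.

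Some genes told the treatments apart the other way or not at all. The p53 list was lower than with DEN in 16 of 19 tested members, with Ccng1 at −1.68 ± 0.11 (adjusted p = 2.30e-07). Abcb1b, 18.1-fold above controls with CCl4, was lower than with DEN (−0.99 ± 0.18, adjusted p = 4.74e-04), as was Mybl2, a factor of dividing cells (−2.56 ± 0.28, adjusted p = 1.18e-05). For Ccnd1 (0.24 ± 0.16, adjusted p = 0.23), Fas (−0.33 ± 0.18, adjusted p = 0.148) and Gstm3 (−0.34 ± 0.24, adjusted p = 0.261) no difference between the treatments was called.

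**Figure D4:**
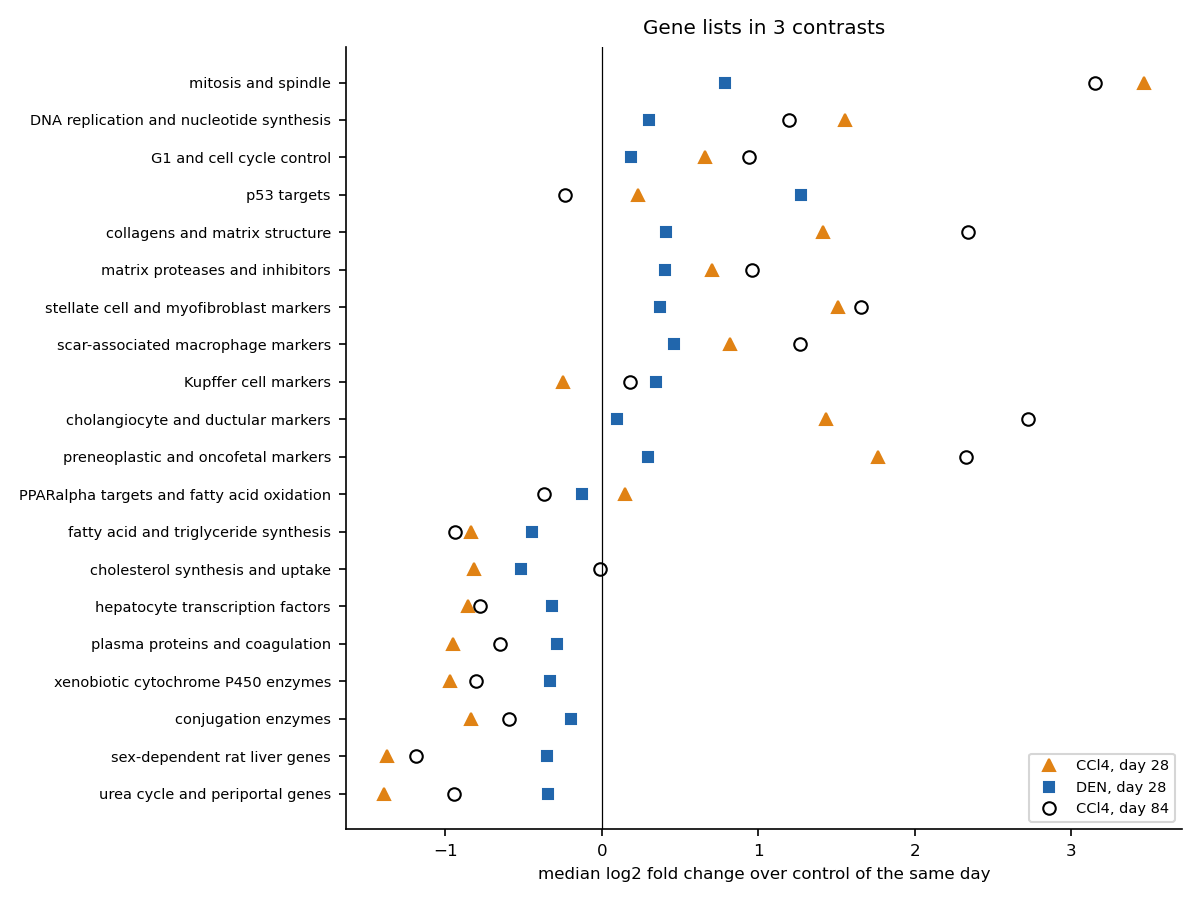
Median log2 fold change over the tested members of 20 gene lists for CCl4 against control at day 28 (orange triangles), DEN against control at day 28 (blue squares) and CCl4 against control at day 84 (open circles). The day 28 medians share their controls. Mitosis genes stand at 3.46 with CCl4 and at 0.79 with DEN, and cholesterol genes at −0.81 with CCl4 at day 28 and at −0.01 at day 84.

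By day 84 most effects of day 28 were not shown to differ. The effect of CCl4 at day 84 minus that at day 28 was called in 658 genes (6.37%), 371 higher (3.59%) and 287 lower (2.78%). Without CCl4 replicate 2 of day 28 the count was 1294, so that 1 rat moves it by more than 1.5 times. With slide as a block it was 415, of which 171 were higher and 244 lower. With spike-in scaling 83 were higher and 210 lower. The slide of the day 28 controls held no array of day 84, so day and slide cannot be fully told apart. Of cholesterol genes, 16 of 30 tested had a higher effect at day 84, and all of these were enzymes of synthesis. Sqle, an oxygenase of that pathway, went from −0.75 ± 0.23 at day 28 (a call lost without control 1, and 0.05 with spike-in scaling) to 2.39 ± 0.23 at day 84, a difference of 3.14 ± 0.33 (adjusted p = 4.99e-04). Insig2, a sensor of the same pathway, differed the other way, by −1.15 ± 0.31 (adjusted p = 0.0437). Of PPARalpha targets, 9 of 31 had a lower effect at day 84, with Acsm5 at −2.36 ± 0.38 (adjusted p = 0.00402). Of mitosis genes, 3 of 30 did, with Aurka at −1.12 ± 0.19 (adjusted p = 0.00567). Elastin (Eln), which rose by 0.86 ± 0.24 at day 28, was higher still at day 84 by 2.34 ± 0.34 (adjusted p = 0.00263).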

How the data were processed

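Each of 18 Agilent one-colour arrays held the liver RNA of 1 rat. Per the file headers, the authors extracted signals with Agilent Feature Extraction 10.7.1.1, and the background-corrected processed signal, a deposited intensity, was used. The authors' deposited value table was checked to be a linear ratio of that signal to 1 constant per array, and served as an alternative. Control and outlier spots were left out, and log2 processed signals were centred on the 75th percentile of each array, which lay at 169.8 to 181.5 in controls and 273.6 to 325.5 with CCl4. Of 61537 probes, 28206 had 1 RefSeq gene and the others are unnamed here.

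The brightest kept probe of each gene by mean entered a limma 3.58.1 fit (R 4.3.3) of all 18 arrays and 6 group means, with Benjamini-Hochberg adjustment over 10328 genes. The fit was tested on simulated data. A probe not well above background on any array of a group has only a bound, given as the brighter group's mean over the detection floor of the dimmer. Genes were named as the largest changes on each side and, in 46 lists, as first members, members with the largest changes or members needed to show which moved. The comparison, members and lists were chosen with earlier results of these data known. Alternatives covered background, filter, scaling, probe choice, slide, variance trend, replicate block and leaving out each rat. Replicate numbers did not pair the rats (correlations of deviations −0.099 to 0.089).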

Additional observations from a re-analysis of the deposited data

Results flagged for a closer look

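The effect of CCl4 at day 84 differed from that at day 28, by limma's test of the difference itself (adjusted p under 0.05), in 21 of the 220 genes named above. Over all genes tested the share was 6.37%. Some of the 220, such as Sqle and Insig2, were named for this difference, so the count of 21 is a description only. Values are the day 84 effect minus the day 28 effect on the log2 scale. Without CCl4 replicate 2 of day 28 the number of such genes among all tested rose from 658 to 1294, and the share that rat has in single genes was not tested.

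Enzymes of cholesterol synthesis had higher effects at day 84: Sqle by 3.14, Tm7sf2 by 2.68 and Ebp by 1.12. Insig2, which restrains the pathway, differed by −1.15. Eln, elastin, differed by 2.34 and Tgfb3, a growth factor, by 1.45. In their lists 4 of 30 and 2 of 29 members were called higher, beside 3.59% of all genes tested. The receptors Ahr and Nr1i2 differed by 1.32 and 0.779, Cyp2c24 by 1.47, Lyz2 by 1.39, Slc4a8 by 1.94 and Afp by 0.711.

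Lower effects at day 84 were called for 3 of 30 mitosis genes, 2 of 31 replication genes and 3 of 28 control genes of the cycle. The share over all genes tested was 2.78%. Among the genes named above, those of these lists with a lower effect were Aurka at −1.12, Foxm1 at −0.937, Cks2 at −0.858 and Cdk2 at −0.717. Acsm5 differed by −2.36, Cpt1a by −1.05, Atf3 by −2.17, Ecm1 by −1.25 and Apoa4 by −0.598.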

How the results depend on the processing

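Counts of genes called for CCl4 against control and against DEN at day 28 stayed within 1.5 times of 6427 and 4898 under all alternatives run. Leaving out 1 rat at a time gave 5562 (without CCl4 replicate 2) to 6473 calls. With replicate number as a block, which did not pair the rats, 6396, 4805 and 599 genes were called for the 3 contrasts. The day difference of 658 genes moved to 1011 with normexp, 397 with no filter on dim probes, 293 with spike-in scaling, 360 with only the groups compared, 415 with slide as a block and 1294 without CCl4 replicate 2, the last chosen after seeing the data. The cause was not tested.

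Scaling to the spike-ins turned the sign of genes with small differences: Hspa5 to 0.50 (0.020 with quantile normalization), C1qa 0.57, C1qc 0.77, Ccnd2 0.69, Cdk2 0.73, Cdkn1a 0.19, Cyp2e1 0.52, Gclc 0.69, Glul 0.60, Il1b 0.73, Lyz2 0.0060, Mcm10 0.13, Sqle 0.050 and Txnrd1 0.48. It turned list medians likewise: Kupffer cells to 0.56, endothelium 0.78 (0.073 with the percentile of detected probes), erythroid, pancreatic and fat tissue 0.018, acute phase 0.019, NRF2 0.69 (0.12 with quantile normalization), transporters 0.084, glycolysis 0.37, protein folding 0.64 (0.082), respiratory chain 0.31, growth hormone 0.49, lysosome 0.70 (0.011), clock 0.23 and iron 0.29, where values in parentheses are quantile values unless another is named.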

Other observations

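Clock genes rose in 2 and fell in 6 of 15 tested members (7 higher and 2 lower with spike-in scaling), and genes of iron and metal handling in 0 and 10 of 19 (8 higher and 1 lower). Targets of YAP and TEAD rose in 4 and fell in 1 of 10, and lysosomal genes in 3 and 4 of 15 (13 higher and 0 lower with spike-in scaling). The medians of the clock, iron and lysosome lists, −0.57, −0.51 and −0.11, turned positive with spike-in scaling, so no direction is given for them.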
